A study of Caenorhabditis elegans with 18 samples.

Results

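The left arm of chromosome IV of Caenorhabditis elegans was described here through the 6792 windows of 500 bp that start from 500001 to 3896000, out of 200538 windows in the genome. The windows were chosen by position alone, from 500 kb inside the left end of the chromosome to the border of its high-recombination arm. They fill 339 whole bins of 10 kb, and the 12 windows of the last, incomplete bin entered the means over windows only. Chromatin bound by LEM-2 was precipitated with an anti-LEM-2 antibody (IP) and sequenced beside input chromatin, in early embryos at 20 degrees that were fixed in 2% formalin for 30 min. The strains were met-2(n4256) III, set-25(n5021) III and the wild type N2 (Bristol), each with 3 IP libraries and 3 inputs, which the labels call independent replicates. A library is named by its strain and its column letter, a to c. Coordinates are those of the deposited table, in which chromosome IV ends at 17493785. The processing notes name the build ce10, whose chromosome ends differ from those of the table, and the gene table at hand follows another assembly, so bins were not assigned to genes.

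LEM-2 is a LEM-domain protein of the inner nuclear membrane, and DNA that is precipitated with it lies at or near the nuclear envelope. C. elegans autosomes have gene-dense centres and arms that are rich in repeats, recombine often and carry methylated histone H3 lysine 9 (H3K9). Mono- and dimethylated H3K9 of embryos is made by MET-2, a SETDB1 homologue, and the trimethylated form by SET-25. The chromodomain protein CEC-4 binds methylated H3K9 at the envelope and anchors arms there. The comparison here asks how LEM-2 contact lies along this arm in embryos labelled as mutant for either enzyme.

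Libraries held 8.73 M to 64.45 M reads, and the median arm window held 40 to 282 reads per library, the fewest in met-2 IP b. The libraries labelled set-25 were not alike. All 3 inputs labelled set-25 lacked chromosome III from 13287501 to 13289000, with 4, 0 and 0 reads there. Chromosome III from 8376501 to 8377500 was missing in the met-2 inputs, with 3, 0 and 1 reads, and also in inputs b and c labelled set-25, with 0 and 0 reads, against 684 in input a labelled set-25. Columns b and c labelled set-25 thus lacked both intervals and may lack both enzymes, which was not tested further. These libraries are therefore called labelled set-25, and values are given by column. Chromosome V from 1646001 to 1647500 was missing in input a of N2 and in inputs b and c labelled set-25. N2 input a had 0 reads there, against 471 and 541 in N2 inputs b and c. The N2 libraries were thus not all alike either. In the arm itself, 0 windows were missing from some inputs and present in the others.

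In N2 embryos the arm was enriched for LEM-2. Enrichment is the log2 value of an IP library minus that of the averaged inputs of the same strain. The 3 values of a strain share this input mean, and their SD does not hold the inputs' own spread. The arm mean was 0.48 in N2 column a, 0.33 in b and 0.29 in c, or 0.37 ± 0.10 (SD, n = 3), a ratio of IP to input of 1.29. On median-centred values the mean was 0.65. All 3 libraries lay above 0, column a highest. By limma with Benjamini-Hochberg adjustment over 10029 bins and a threshold of 0.05, IP was above input in 230 of the 339 bins, or 67.8%, against 32.3% of all bins. IP was below input in 52 bins, or 15.3%, against 53.5% of all bins, and in 7.96% of the arm on median-centred values. For counts on median-centred values, here and below, no share of all bins is given. The median change was 0.46 in the arm and -0.25 over all bins. Bins of the arm ran from -1.13 to 1.41, with quartiles at -0.01 and 0.77, so the arm held both strongly contacted and depleted stretches.

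**Figure D1:**
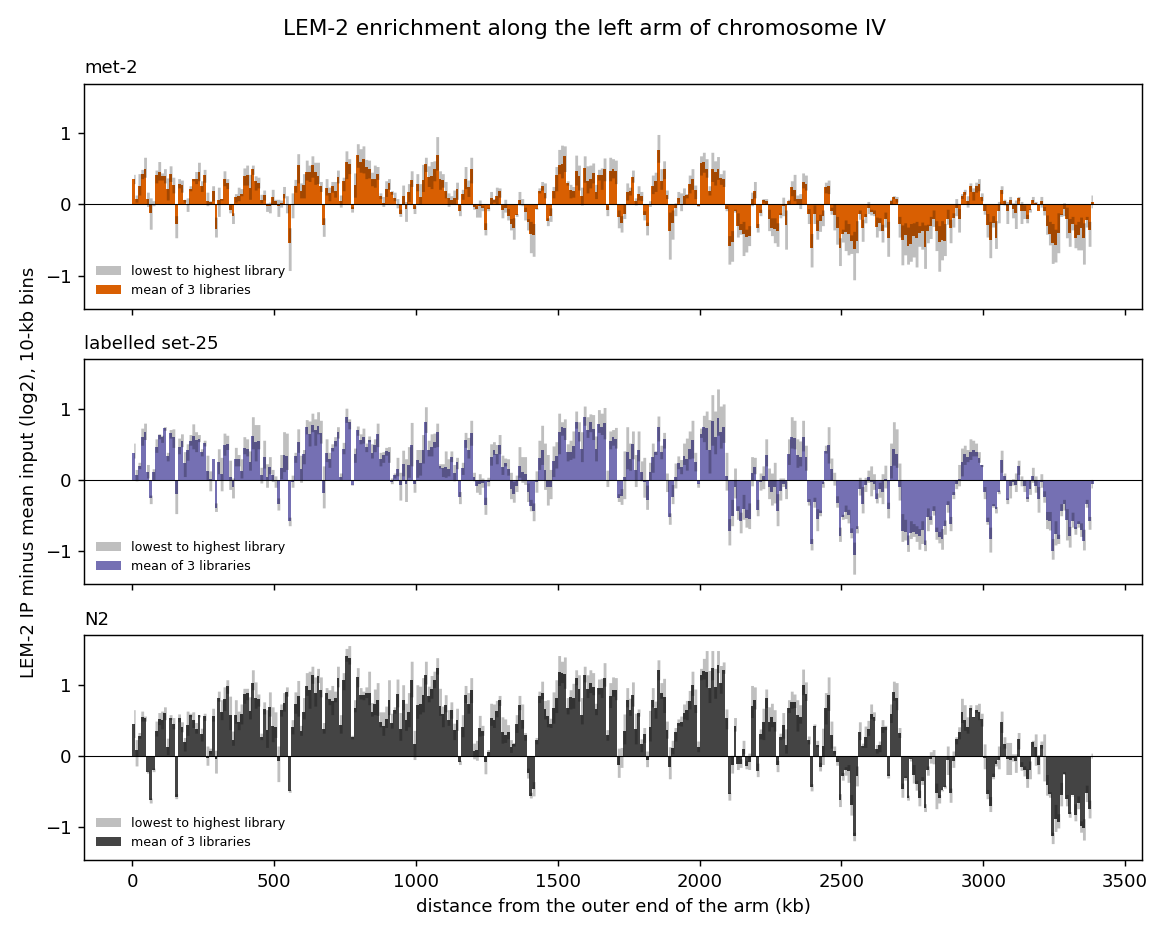
LEM-2 enrichment (log2 of IP minus mean input) of the 339 bins of 10 kb against distance from the outer end of the arm, in met-2, labelled set-25 and N2 embryos from top to bottom. Bars are means of 3 libraries and the grey band runs from the lowest to the highest library. N2 bins reach 1.41, while met-2 bins reach 0.76 and bins labelled set-25 reach 0.89.

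Enriched bins of N2 formed runs. Those of at least 5 consecutive enriched bins numbered 13 and held 182 of the 339 bins. No such run lay between 2890000 and 3400001 or beyond 3500000. The longest spanned 1060001 to 1490000, which is 430 kb, at 0.93, 0.71 and 0.67 in N2 columns a, b and c. The next spanned 1920001 to 2210000, which is 290 kb, at 0.99, 0.77 and 0.75, and another spanned 800001 to 1010000, which is 210 kb, at 0.80, 0.58 and 0.55. In each of these domains column a was the highest library. With at most 1 bin taken per 100 kb, the highest bins were 1250001 to 1260000 at 1.41 ± 0.09, 2560001 to 2570000 at 1.28 ± 0.17, 1570001 to 1580000 at 1.23 ± 0.13, 2350001 to 2360000 at 1.20 ± 0.14 and 2000001 to 2010000 at 1.18 ± 0.21 (SD, n = 3). Their limma adjusted p values against input lay between 6.8e-10 and 5.44e-08.

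Some borders between contacted and depleted bins were steep in N2. The largest step between neighbouring bins lay at 1050000, where the mean dropped by 1.39, with 0.90 on its left and -0.49 on its right. The bin after that, from 1060001, was at 0.40, so this step bounded a dip of 10 kb. The same border had steps of -0.57 in met-2 and -0.91 in the libraries labelled set-25. At 2600000 the N2 step was -1.08, and the steps in met-2 and labelled set-25 were -0.52 and -0.77. These borders were picked for their N2 steps, so the smaller steps of the other strains are a description. Bin means 10 kb apart were alike within each strain (Pearson r = 0.74 in met-2, 0.77 in labelled set-25 and 0.73 in N2, over 338 pairs of bins from the same libraries). At 100 kb r was 0.33, 0.34 and 0.38.

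Runs of 5 or more depleted bins in N2 numbered 2, and both lay near the inner end of the arm. The longer spanned 3720001 to 3880000, which is 160 kb, at -0.78, -0.64 and -0.73 over the N2 columns. The other spanned 3250001 to 3300000, at -0.42, -0.43 and -0.55. With at most 1 bin taken per 100 kb, the lowest bins were 3740001 to 3750000 at -1.13 ± 0.09, 3040001 to 3050000 at -1.12 ± 0.06, 3850001 to 3860000 at -1.01 ± 0.15, 3290001 to 3300000 at -0.73 ± 0.05 and 3520001 to 3530000 at -0.70 ± 0.11 (SD, n = 3). All 5 lay beyond 3000000, in the inner part of the arm.

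Contact was therefore not even along the arm, which was divided into segments of 500 kb from its outer end. In N2 the segment from 1000001 was highest, at 0.71 ± 0.13, with 47 of 50 bins enriched, and the segment from 2000001 was next, at 0.67 ± 0.13, with 44 of 50. The outermost segment was at 0.43 ± 0.08, the segment from 1500001 at 0.49 ± 0.11 and the segment from 2500001 at 0.44 ± 0.12. The segment from 3000001 was at 0.03 ± 0.07, with 21 bins enriched and 18 depleted. The innermost segment, from 3500001, was at -0.32 ± 0.05 (SD, n = 3), with 5 bins enriched and 22 depleted of 39. The innermost segment lay below 0 in all 3 N2 libraries, though it belongs to the arm by its position.

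**Figure D2:**
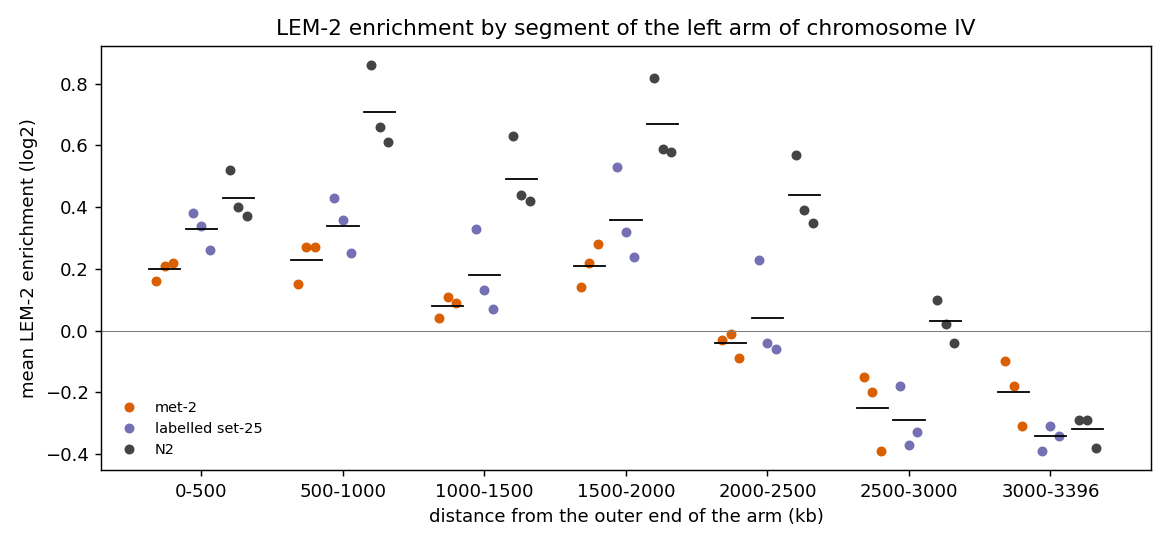
Mean LEM-2 enrichment (log2) of the 7 segments of the arm against distance from its outer end. Points are libraries and bars are means of 3, for met-2, labelled set-25 and N2 from left to right in each segment. In the 6 outer segments all 3 met-2 libraries lie below all 3 N2 libraries, and in the innermost segment the strains lie between -0.39 and -0.10.

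In met-2 embryos the mean of the arm lay close to input. Its segments lay on both sides of input, at 0.20, 0.23, 0.08, 0.21, -0.04, -0.25 and -0.20 from the outermost inward. Met-2 columns a, b and c had arm means of 0.04, 0.07 and 0.02, or 0.04 ± 0.02 (SD, n = 3), against 0.48, 0.33 and 0.29 in N2. All 3 met-2 libraries were below all 3 N2 libraries, and the difference of means was -0.33. By limma, 215 of the 339 bins were lower in met-2 than in N2, or 63.4%, against 22.3% of all bins. Leaving out any single column gave 165 to 219 lower bins. Another 11 bins were higher, or 3.24%, against 45.6% of all bins. The median change of the arm was -0.39, against 0.20 over all bins. All values are relative to the total of the library. On median-centred values the arm's median change was -0.60, against -0.01 over all bins, with 270 bins of the arm lower and 3 higher. The 22.3% and 45.6% come from the values without centring and are no background for these counts.

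The fall held over the 6 outer segments. From the outermost segment inward met-2 differed from N2 by -0.23, -0.48, -0.41, -0.45, -0.48 and -0.27, and 23, 44, 41, 42, 39 and 25 of 50 bins passed as lower. On median-centred values these differences were -0.44, -0.69, -0.62, -0.66, -0.69 and -0.48, and without met-2 column c the last was -0.17. In the innermost segment met-2 was at -0.20 ± 0.11 and N2 at -0.32 ± 0.05 (SD, n = 3), with 1 bin lower and 9 higher of 39. The difference there was 0.13, and it turned to -0.08 on median-centred values. Of the 11 bins higher in met-2, the other 2 lay in the outermost segment. All 11 were depleted in N2, but both calls use the same N2 libraries, so this overlap is a description. Without met-2 column a, b or c the higher bins numbered 4, 7 and 23, and without N2 column a they numbered 7.

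The largest fall was in the bin from 1040001 to 1050000, which had 0.04, -0.12 and 0.12 in met-2 columns a, b and c, against 0.97, 0.89 and 0.84 in N2 (change -0.89, SE 0.14, limma adjusted p = 0.000251). This bin borders the steepest step of the N2 profile. The bin from 2750001 to 2760000 had -0.19, -0.44 and -0.38 in met-2, against 0.74, 0.48 and 0.41 in N2 (change -0.88, SE 0.15, limma adjusted p = 0.000316). Here met-2 was below input in all 3 libraries and N2 above it in all 3. The bins from 2580001, 1430001 and 1250001 fell by 0.85, 0.85 and 0.82 (limma adjusted p = 0.000303, 0.000174 and 0.000174). At 1430001 met-2 had -0.05, 0.08 and 0.01, against 1.08, 0.82 and 0.69 in N2. The bin from 1250001, the highest of N2, still had 0.36, 0.65 and 0.75 in met-2.

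The 2 largest rises lay inside the longest depleted run of N2. The bin from 3840001 to 3850000 had -0.18, -0.19 and -0.64 in met-2, against -1.07, -0.91 and -0.96 in N2 (change 0.64, SE 0.15, limma adjusted p = 0.00151). The bin from 3740001 changed by 0.58 (limma adjusted p = 0.00734). The bin from 560001, in the outermost segment, had -0.10, 0.09 and -0.35 in met-2, against -0.61, -0.66 and -0.59 in N2 (change 0.50, limma adjusted p = 0.00945). This last rise did not pass on median-centred values (change 0.29, adjusted p = 0.109), nor without met-2 column a or b (adjusted p = 0.0554 and 0.0695).

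Part of the contact remained in met-2. IP was above input in 108 of 339 bins, or 31.9%, against 22.4% of all bins, and below input in 74, or 21.8%, against 30.0%. Without met-2 column c the enriched bins numbered 64 and the depleted bins 21. All 108 enriched bins were also enriched in N2 and made up 47.0% of the 230 bins enriched there. Of the 230, 117 passed in neither direction in met-2 and 5 were depleted. Of the 108, 90 were lower than in N2 as well, so they stayed above input at a reduced level. Runs of 5 or more enriched bins in met-2 numbered 7 and held 45 bins, against 13 runs with 182 bins in N2. Runs of depleted bins in met-2 numbered 6 and held 42 bins, against 2 runs with 21 bins in N2. The longest enriched run of met-2, from 1280001 to 1370000, was 90 kb. That run was at 0.34, 0.51 and 0.60 in met-2, against 0.96, 0.78 and 0.74 in N2.

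The highest bins of met-2, with at most 1 taken per 100 kb, were among the high bins of N2. The bin from 2350001 to 2360000 had 0.59, 0.71 and 0.98 in met-2 columns a, b and c, against 1.35, 1.19 and 1.07 in N2. The bins from 1570001 and 1290001 were at 0.69 ± 0.24 and 0.69 ± 0.17 in met-2, against 1.23 ± 0.13 and 1.11 ± 0.13 in N2. The bins from 2020001 and 2510001 were at 0.68 ± 0.20 and 0.59 ± 0.14, against 1.15 ± 0.22 and 1.19 ± 0.16 (SD, n = 3). Across the 339 bins the mean profiles of met-2 and N2 had a Pearson r of 0.86, and the SD over bins was 0.31 in met-2 and 0.52 in N2. The order of bins was thus much alike while the range was smaller. Single met-2 libraries had SDs over bins of 0.21, 0.31 and 0.44 in columns a, b and c, all below the N2 libraries at 0.58, 0.49 and 0.50.

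**Figure D3:**
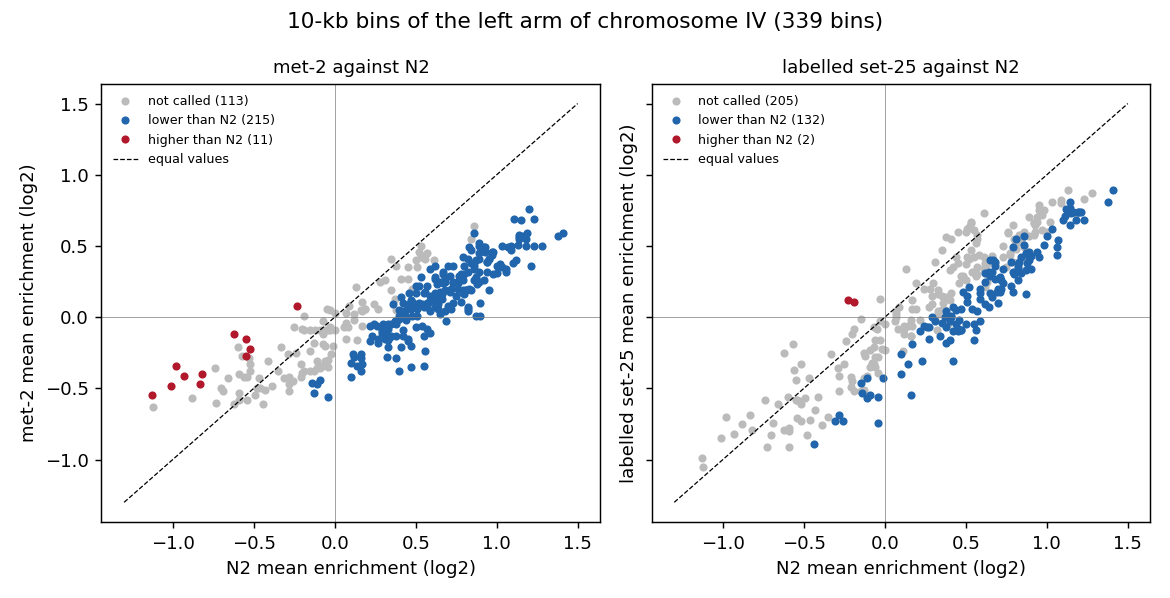
Mean enrichment (log2) of the 339 bins of the arm in met-2 (left) and in libraries labelled set-25 (right) against N2, coloured by the limma call against N2, with the line of equal values. In met-2, 215 bins are lower and 11 higher, and in labelled set-25, 132 are lower and 2 higher. The N2 values enter both the x axis and the call.

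In the libraries labelled set-25 the arm was lower than in N2. Columns a, b and c labelled set-25 had arm means of 0.21, 0.07 and 0.02, against 0.48, 0.33 and 0.29 in N2. The values of columns b and c were the ends of the met-2 range of 0.02 to 0.07, and column a, the only column above that range, was highest in N2 as well. Set against the N2 column of the same letter, columns a, b and c labelled set-25 differed by -0.27, -0.26 and -0.27. Met-2 columns differed in that way by -0.45, -0.27 and -0.27. The labels do not say that columns of the same letter belong together, so these differences rest on an assumed pairing. The difference of means was -0.27. With column a and its own input alone, set against all of N2, it was -0.13. By limma 132 of the 339 bins were lower than in N2, or 38.9%, against 10.6% of all bins, and 2 were higher, or 0.59%, against 19.8%. The median change was -0.29, against 0.18 over all bins. On median-centred values 187 bins were lower and 0 higher, and the median change was -0.45 in the arm, against 0.02 over all bins. The 10.6% and 19.8% are no background for these centred counts. The count of lower bins moved with single columns. Leaving out column b or c labelled set-25 gave 9 or 13 lower bins, and leaving out column a gave 198. Leaving out N2 column a or b gave 16 or 76, and leaving out met-2 column b, through the common estimate of spread, gave 78. In a replicate block chosen after seeing the data, which compares libraries of the same letter and kind between labelled set-25 and N2 alone, 234 bins were lower, or 69.0%, against 20.9% of all bins, and 9 were higher, or 2.65%, against 48.1%. Without that block the same 12 libraries gave 89 lower and 1 higher. By windows of 500 bp limma called 0 of 6792, and 1393 had an unadjusted p under 0.05.

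The fall in these libraries was least in the outermost and innermost segments. From the outermost segment inward the difference from N2 was -0.10, -0.37, -0.32, -0.30, -0.40, -0.32 and -0.02, and 12, 28, 25, 15, 28, 24 and 0 bins passed as lower. On median-centred values these differences were -0.26, -0.52, -0.47, -0.46, -0.55, -0.47 and -0.17. Leaving out any column moved that of the outermost segment between -0.15 and -0.05. In the outermost segment column a labelled set-25 had 0.38, columns b and c had 0.34 and 0.26, and N2 had 0.52, 0.40 and 0.37, so the strains overlapped there. Both bins higher than in N2 lay in that segment, at 550001 and 570001. The bin from 550001 to 560000 had 0.11, 0.22 and 0.03 in libraries labelled set-25, against -0.23, -0.21 and -0.24 in N2 (change 0.35, SE 0.10, limma adjusted p = 0.0231). It did not pass on median-centred values (adjusted p = 0.124), nor without column b or c labelled set-25 or N2 column a (0.122, 0.0885 and 0.107).

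The largest fall was in the bin from 2900001 to 2910000, which had -0.24, -0.38 and -0.30 in columns a, b and c labelled set-25, against 0.45, 0.41 and 0.41 in N2 (change -0.73, SE 0.10, limma adjusted p = 0.000332). All 3 libraries labelled set-25 were below input there, column a included. The bin from 1430001, also among the largest falls of met-2, had 0.32, 0.10 and 0.06 and fell by 0.71 (limma adjusted p = 0.00147). The bins from 2750001, 3240001 and 1960001 fell by 0.70, 0.70 and 0.65 (limma adjusted p = 0.00637, 0.00596 and 0.0348). Without column b labelled set-25 these 3 did not pass (limma adjusted p = 0.0596, 0.0615 and 0.15). The bin from 1960001 also did not pass without column c labelled set-25, N2 column a or b, or met-2 column b (limma adjusted p = 0.201, 0.183, 0.0569 and 0.0564), nor by voom (0.0621). At 1960001 column a labelled set-25 had 0.36, near N2 column c at 0.41, while columns b and c had -0.26 and -0.35. All 6 named bins passed in the replicate block by letter, which called 234 bins of the arm lower, against 132 in the main fit. That block was chosen after seeing the data and rests on an assumed pairing. Passing in it therefore adds no separate support for these bins.

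Against input, 157 bins were enriched in libraries labelled set-25, or 46.3%, against 29.0% of all bins, and 79 were depleted, or 23.3%, against 43.7%. Of the 157, 156 were also enriched in N2, which is 67.8% of the bins enriched in N2. Enriched runs of 5 or more bins numbered 13 and held 110 bins, and depleted runs numbered 5 and held 53 bins. The longest depleted run spanned 3210001 to 3400000, which is 190 kb, at -0.59, -0.75 and -0.66 in columns a, b and c labelled set-25, against -0.30, -0.34 and -0.41 in N2. The run from 2880001 to 2930000 was at -0.45, -0.57 and -0.49, against 0.06, 0.05 and 0.02 in N2. Both runs were chosen for their low values in these libraries. Across bins the mean profile had a Pearson r of 0.92 with N2 and 0.94 with met-2, over 339 bins.

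Between met-2 and the libraries labelled set-25, limma called 0 of the 339 bins of the arm. In the same fit 0.389% of all bins were higher and 0.0299% lower in met-2. A limma p under 0.05 without adjustment was reached by 62 bins of the arm. In the adjacent and right-end stretches described below, of 339 bins each, it was reached by 28 and 35. No share over all bins is given for these counts, so the 62 were not read as an excess in the arm. Voom on recovered reads called 14 bins of the arm. This count also has no share of all bins beside it and was not read as a result about the arm. The median change was -0.08 in the arm and 0.04 over all bins. Column a had the highest arm mean of the libraries labelled set-25, at 0.21, against 0.04 ± 0.02 in met-2 (SD, n = 3). The arm means of met-2, 0.02 to 0.07, lay within the range of 0.02 to 0.21 of the libraries labelled set-25.

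The arm was set beside 2 stretches of chromosome IV with the same number of windows. The adjacent stretch from 3896001 to 7292000 lies toward the centre, and the mirror-image stretch from 13597501 to 16993500 lies at the same distance from the right end. The arm exceeded the adjacent stretch by 0.02, 0.09 and 0.04 in met-2 columns a, b and c, and by 0.40, 0.04 and 0.02 in columns a, b and c labelled set-25, against 0.77, 0.57 and 0.56 in N2. N2 did not overlap with either, and column a labelled set-25 stood apart from columns b and c, which alone gave an excess of 0. This contrast within a library does not depend on the scaling. The adjacent stretch itself was at -0.01 ± 0.02 in met-2, -0.05 ± 0.12 in libraries labelled set-25 and -0.27 ± 0.02 in N2 (SD, n = 3). By limma 152 of its 339 bins were higher and 12 lower in met-2 than in N2, and on median-centred values 73 were higher and 33 lower. The 152 bins are 44.8%, near the 45.6% of all bins, and the 12 are 3.54%, against 22.3%. Its difference between met-2 and N2 was 0.26, and 0.05 on median-centred values.

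The right-end stretch of the same chromosome carried more LEM-2 signal than the left arm in every library. It was at 0.39 ± 0.10 in met-2, 0.56 ± 0.11 in libraries labelled set-25 and 0.61 ± 0.13 in N2 (SD, n = 3). Enriched bins there numbered 259 in met-2, 283 in labelled set-25 and 288 in N2, of 339, whereas the left arm had 108, 157 and 230. Bins lower than in N2 numbered 94 in met-2 and 7 in labelled set-25, against 215 and 132 in the left arm. These are 27.7% and 2.06% of the right-end stretch, against 22.3% and 10.6% of all bins. On median-centred values the lower bins numbered 231 and 24 in the right-end stretch, against 270 and 187 in the left arm. The shares of all bins above are no background for these centred counts. The left arm minus the right-end stretch was -0.27, -0.29 and -0.48 in met-2 and -0.42, -0.54 and -0.41 in labelled set-25, against -0.27, -0.27 and -0.19 in N2. The libraries labelled set-25, column a included, did not overlap with N2 in this difference. Met-2 overlapped with N2 at column a, and without met-2 column c its mean of -0.35 became -0.19. These differences between the ends of the chromosome are means over many bins and were not tested. Among the same span at the 10 ends of the 5 autosomes, the left end of IV ranked 5 from the highest in N2, level with the left end of II, and 8 in met-2. Its fall in met-2 ranked 5 from the largest, level with the left end of I.

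**Figure D4:**
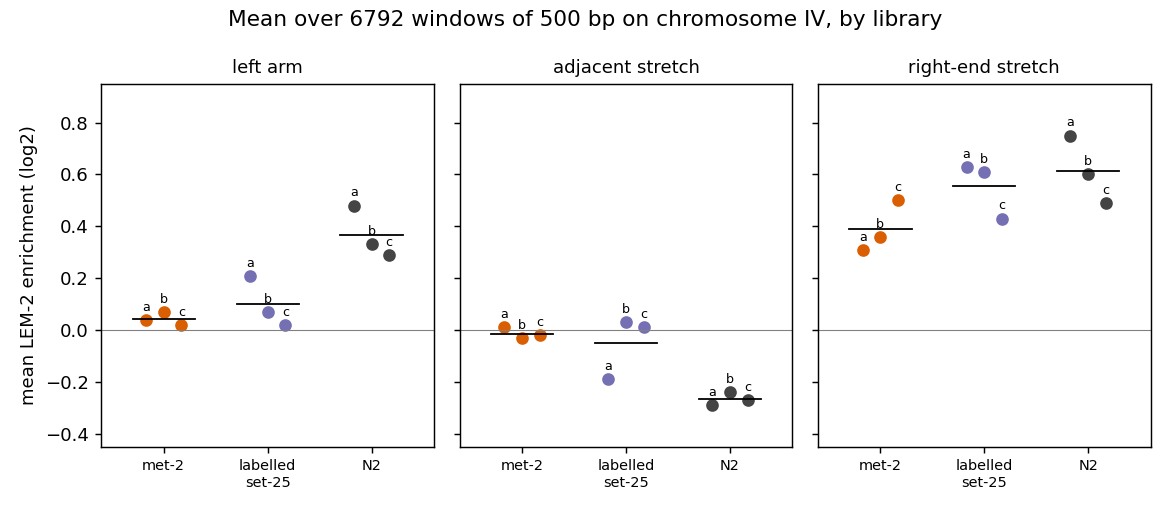
Mean LEM-2 enrichment (log2) over 6792 windows of the left arm, the adjacent stretch and the right-end stretch of chromosome IV, by library. Points are libraries with the letter of their column, and bars are means of 3. In the left arm N2 libraries lie from 0.29 to 0.48 and met-2 libraries from 0.02 to 0.07.

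Input coverage of the arm was 0.887 to 0.94 of the genome mean, depending on the library. In 17 windows, in 5 runs, every input exceeded the median window by more than 2 times. The highest run, from 2828501 to 2831000, held 33.7 to 45.3 times the median window. Its enrichment was 0.07, 0.08 and 0.21 in met-2 and 0.83, 0.26 and 0.39 in libraries labelled set-25, against 0.53, 0.65 and 0.86 in N2. The run from 3366501 to 3368000 was low in every strain, at -0.43, -0.85 and -1.03 in met-2 and -1.43, -1.20 and -0.82 in labelled set-25, against -1.70, -1.13 and -0.78 in N2. These 2 of the 5 runs thus differed in IP minus input although both had high coverage. How repeats were treated is not known, so this difference was not read as contact at these positions. Another 85 windows were under 50% of the median window in every input.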

How the data were processed

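The authors' deposited table gives, for each of 200538 windows of 500 bp and 18 libraries, a value on the log2 scale. The values show that each is log2 of scaled reads plus 2, with every library scaled to 35.17 M reads, and whole reads were recovered for 100.0% of values within 0.01. The build ce10 comes from the submitters' processing notes. For the aligner, the counter and the filters, nothing is given in the sources used here, and how repeats were treated is not known. Scaling to a common total makes every value relative.

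Columns carry strain, kind of library and a letter, not the replicate number of the labels. Log2 values were averaged over 10-kb bins and fitted by limma 3.58.1 under R 4.3.3. The model had a term for each of 6 groups of libraries and 12 residual degrees of freedom over 18 libraries, and the empirical Bayes step used a mean trend. P-values were adjusted by Benjamini-Hochberg over all 10029 bins. The contrasts were IP minus input, and its difference between 2 strains. The fit was also run on simulated bins with independent noise and few changed bins. In these data neighbouring bins were alike and many were called, so that run does not measure the error here. In 18 pairs of replicates the chi-square of arm bins per degree of freedom was 4.02 to 40.3, so no libraries were merged.

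Named bins are the 5 largest in each direction among called bins whose libraries did not overlap (for N2 against input, lay on 1 side of 0), at most 1 per 100 kb, and the 5 highest enriched bins of met-2. Named runs are the 3 longest of each kind in N2, and the runs of the other strains and the steps were added after their values were seen. The arm, its lists and its tests were chosen with earlier results of these data known. Means over the arm are given with no test, and 3 libraries a group limit every comparison. Alternatives were other scalings, inputs, window sizes and filters, voom on recovered reads, replicate blocks within strains and, added after seeing the data, by letter between 2 strains, and leaving out columns. Python 3.11.15, numpy 2.4.6, pandas 2.3.3 and matplotlib 3.10.9 were used for the rest.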

Additional observations from a re-analysis of the deposited data

Results flagged for a closer look

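These bins of 10 kb differed between strains in IP minus input by limma's test of that difference (adjusted p under 0.05 over all bins), with no overlap between the libraries of the strains compared. Met-2 was higher than N2 at 3840001, 3740001 and 560001, by 0.64, 0.58 and 0.50. Met-2 was lower than N2 at 1040001, 2750001, 2580001, 1430001 and 1250001, with changes of -0.89, -0.88, -0.85, -0.85 and -0.82. The libraries labelled set-25 were higher than N2 at 550001, by 0.35. They were lower at 2900001, 1430001, 2750001, 3240001 and 1960001, with changes of -0.73, -0.71, -0.70, -0.70 and -0.65. The lack of overlap was part of the rule that picked all these bins. Of the 6 bins named for labelled set-25, 4 did not pass without its column b. On median-centred values the bins at 560001 for met-2 and 550001 for labelled set-25 did not pass. The comparisons of met-2 and of labelled set-25 share the 3 N2 columns, so bins named for both are not independent.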

How the results depend on the processing

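Median-centring left the contrast of the arm with the adjacent stretch as it was and moved the arm means to 0.11 in met-2, 0.23 in labelled set-25 and 0.65 in N2. The differences from N2 became -0.54 for met-2 and -0.42 for labelled set-25. The share of depleted bins in N2 became 7.96%, and the shares higher than N2 became 0.885% in met-2 and 0 in labelled set-25. With column a alone, where the spread of a lone library is assumed to be that of the other groups, labelled set-25 had an arm mean of 0.24, an excess over the adjacent stretch of 0.45, a difference from N2 of -0.13, 13.0% of bins depleted, 0 higher or lower than N2, and 12.4% called against met-2. By 500-bp windows the enriched and depleted shares were 12.1% and 4.27% in met-2 and 30.2% and 13.6% in labelled set-25. The shares higher and lower than N2 were then 0.353% and 15.3% in met-2 and 0 and 0 in labelled set-25. The median over windows gave an arm mean of 0.07 in met-2, and voom called 4.13% of bins between met-2 and labelled set-25.

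The replicate block within a strain, which tied IP and input of a column letter, moved the share of bins higher in labelled set-25 than in N2 to 0.295% and no other count by over 1.5 times. A replicate block by letter between labelled set-25 and N2, added after seeing the data, gave 2.65% higher and 69.0% lower. The same libraries without it gave 0.295% higher. Same-letter deviations of labelled set-25 and N2 correlated at 0.61, 0.19 and 0.65 in IP and at 0.21, -0.36 and 0.64 in input. Those of IP and input correlated at 0.24 to 0.31 in N2, 0.01 to 0.16 in labelled set-25 and -0.48 to -0.19 in met-2, and those of met-2 and N2 IP at -0.53 to -0.13. Correlations of labelled set-25 with N2 were thus positive in IP for each letter, lowest in b, and of both signs in input. Deviations within a group depend on each other, so these correlations are not independent. Column a labelled set-25 also differed from b and c in a chromosome III interval. In a chromosome V interval column a differed from b and c both in N2 and in labelled set-25. An effect of letter cannot be told apart from these differences, and the labels do not say what the letters mark.

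Leaving out a column of a strain, met-2 had an arm mean of 0.03 to 0.07, an excess over the adjacent stretch of 0.03 to 0.10, 18.9% to 35.7% of bins enriched and 6.19% to 23.6% depleted. Labelled set-25 had an arm mean of 0.03 to 0.15 and an excess of 0 to 0.25. The share higher than N2 was 1.18% to 6.78% in met-2 and 0 to 1.18% in labelled set-25, the share lower than N2 was 2.65% to 58.4% in labelled set-25, and 0 to 2.06% were called between met-2 and labelled set-25. Keeping columns b and c labelled set-25 is the same as leaving out column a. The causes were not tested. Of the arm windows, 4 had under 10 mean input reads.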
